A study of Homo sapiens with 6 samples.

Results

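The genes described here encode the ADF/cofilin proteins and the factors that set how fast actin filaments turn over. They are 10 genes of the 36932 in the table that carry a symbol of their own, and were taken by symbol as CFL1, CFL2, DSTN, LIMK1, LIMK2, SSH1, WDR1, CAP1, PFN1 and PFN2. The set was chosen by the low CPM of CFL2 after DDX18 knockdown, to which its paralogs and partners were added. The CFL2 difference from control is therefore given as a description with no test, and the question put to the other members was whether its paralogs share it.

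Messenger RNA was read from MDA-MB-231, a triple negative human breast cancer cell line with a mesenchymal character. DDX18 is a nucleolar DEAD-box helicase needed to assemble ribosomes. The 6 libraries form 3 groups of 2, which are DDX18 knockdown colony 1, DDX18 knockdown colony 2 and control. All share the same cell line. The agent used for the knockdown, what the control cells received, and whether a colony grew from a single cell are not stated in the labels.

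Actin filaments grow mainly at one end and lose subunits at the other, and ADF/cofilins speed the loss by binding older, ADP-rich stretches, severing them and helping subunits leave. LIM kinases switch cofilins off by phosphorylating a serine near the start of the protein, and slingshot phosphatases take that phosphate away again. WDR1 works with cofilin in disassembly, cyclase-associated protein recycles the released monomers, and profilins recharge monomers with ATP and hand them to growing ends. Mammals have 3 ADF/cofilins, of which CFL1 is the general non-muscle form, CFL2 is best known from muscle and DSTN, also called ADF, is common in epithelia.

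The coding starts of the 3 paralogs show how alike and how separable they are. The lines below give the first 120 coding bases, 5′ to 3′, of 1 transcript of each gene from GENCODE release 29 on GRCh38, with capitals where a base differs from CFL1.
CFL1: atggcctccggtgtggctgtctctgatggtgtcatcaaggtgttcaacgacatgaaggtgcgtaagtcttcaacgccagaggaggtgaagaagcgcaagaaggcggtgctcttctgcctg
CFL2: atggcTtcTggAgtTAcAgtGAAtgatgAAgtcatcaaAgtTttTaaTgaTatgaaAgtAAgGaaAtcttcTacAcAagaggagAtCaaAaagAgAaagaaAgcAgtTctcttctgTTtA
DSTN: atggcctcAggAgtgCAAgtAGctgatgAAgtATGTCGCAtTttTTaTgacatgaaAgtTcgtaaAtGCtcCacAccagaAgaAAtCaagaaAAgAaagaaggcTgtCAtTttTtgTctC
CFL2 has the same base as CFL1 at 70.8% of these positions and DSTN at 65.0%, and codon 3 encodes serine in all 3, the residue that LIM kinases phosphorylate. The proteins are 166 residues long for CFL1, 166 for CFL2 and 165 for DSTN. The transcripts differ more outside the coding part, with 661 bases after the stop codon in CFL1, 6096 in CFL2 and 2773 in DSTN. Across all annotated transcripts, no word of 31 bases was shared between any pair of the 3 genes, between PFN1 and PFN2, or between LIMK1 and LIMK2.

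On GRCh38 the 10 genes lie on 10 chromosomes and all are annotated as protein coding. CFL1 spans chr11:65823022-65862026 on the minus strand, CFL2 spans chr14:34706769-34714823 on the minus strand and DSTN spans chr20:17569863-17609919 on the plus strand. LIMK1 lies at chr7:74082933-74122525 and LIMK2 at chr22:31212239-31280080, both on the plus strand, and SSH1 at chr12:108778192-108857590 on the minus strand. WDR1 lies at chr4:10074339-10116949 on the minus strand and CAP1 at chr1:40040233-40072649 on the plus strand. PFN1 lies at chr17:4945652-4949061 and PFN2 at chr3:149964904-150050788, both on the minus strand.

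Values are CPM as deposited, that is, reads of a gene scaled to library size. By the smallest CPM step of each library, the deposited rows held 8843847 to 11902437 reads, and 1 read equalled 0.0815 to 0.108 CPM. In control replicate 2 and both colony 1 libraries the step was 0.1001 to 0.1010 CPM, so close to a round decimal that their implied reads are less certain. DDX18 itself held 17.6 and 14.0 CPM in colony 1 and 14.7 and 15.1 CPM in colony 2, against 78.8 and 91.7 CPM in control, which is 18.6% and 17.5% of the control mean in the colonies. VIM, the mesenchymal filament protein, stood at 1739 to 1803 CPM in every library. Of the markers that triple negative cells lack, ESR1 did not exceed 0.201 CPM, PGR was at 0 in every library, FOXA1 did not exceed 0.306 CPM, and ERBB2 and GATA3 were detected at 102 to 134 CPM and 21.3 to 27.4 CPM. Leukocyte markers summed to 0.973 to 1.62 CPM in knockdown libraries and 1.33 to 2.20 CPM in controls, and endothelial markers to at most 0.101 CPM in knockdown libraries and 0.409 CPM in controls. Fibroblast markers summed to 1.51 to 1.87 CPM in knockdown libraries and 7.76 to 8.81 CPM in controls, mostly from LUM, and the part of these sums in the results below was not tested.

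In both knockdown colonies CFL2 mRNA stood at about 30% of its control level, while CFL1 rose and DSTN differed little. Among the regulators LIMK1 rose and SSH1 fell, and the minor profilin PFN2 fell. PFN1 was higher in colony 1 than in either of the other groups, and CAP1 and LIMK2 passed no test. Genes were tested with limma on log2(CPM + 1) over the 13675 genes that averaged 1 CPM or more, with Benjamini-Hochberg adjustment over all of them and a call at an adjusted p under 0.05. All 10 members passed that expression filter.

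**Figure D1:**
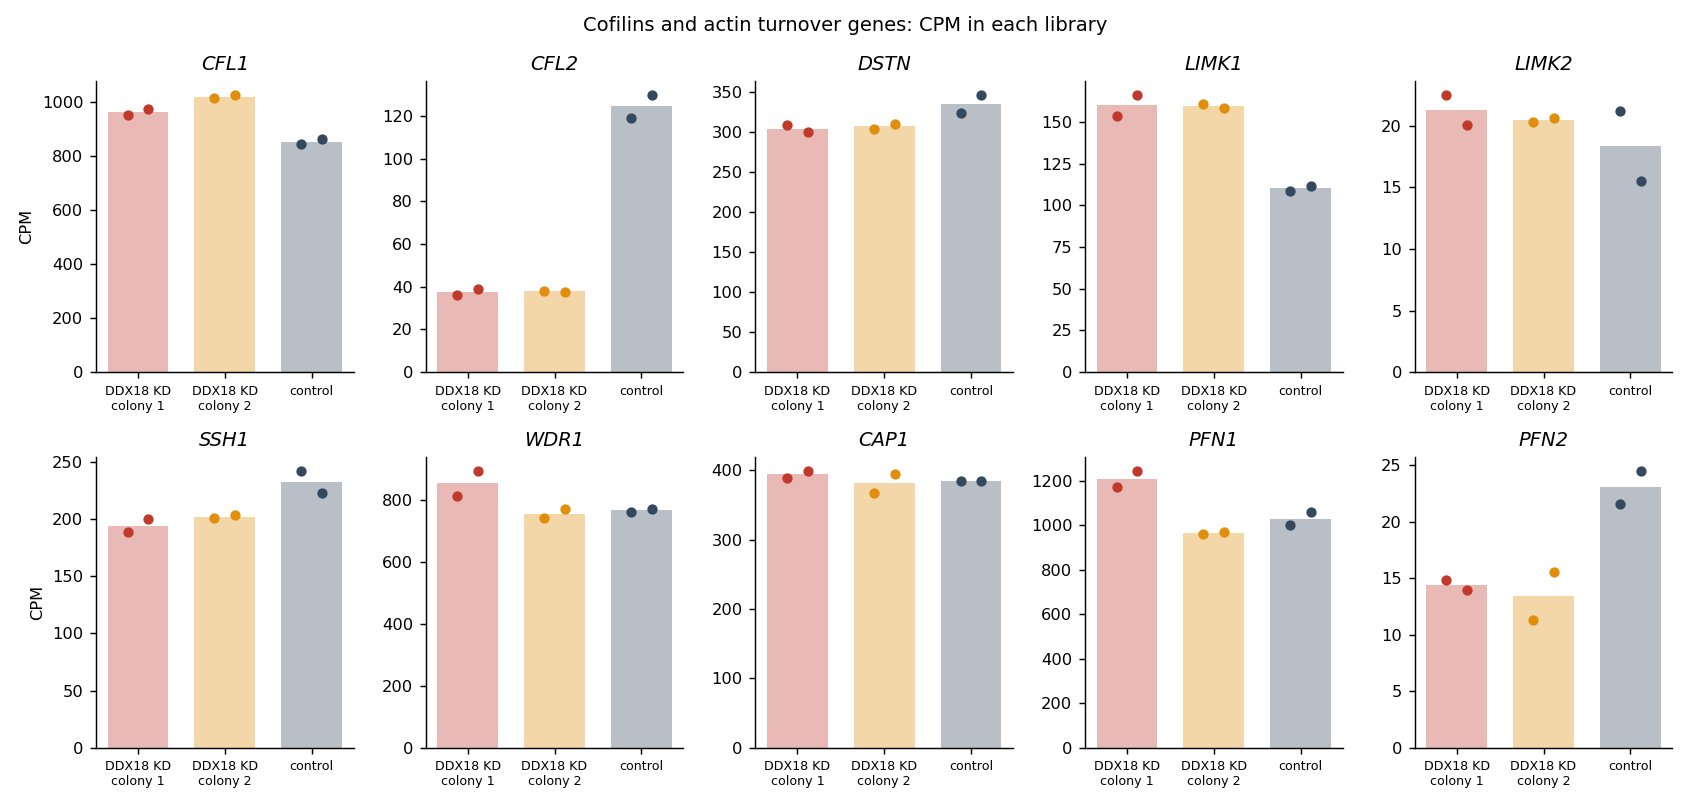
CPM of each of the 10 genes in the 6 libraries, with points for single libraries and bars for the mean of the 2 libraries of a group; each panel has its own axis, which starts at 0. The 4 CFL2 points of the knockdown colonies lie between 36.2 and 38.9 CPM and the controls at 119 and 130 CPM, while CFL1 and LIMK1 are above control in all 4 knockdown libraries.

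CFL2 held 36.2 and 38.9 CPM in colony 1 and 38.1 and 37.6 CPM in colony 2, against 119 and 130 CPM in control. The knockdown libraries lay close together and far below both controls. The means were 37.5 ± 1.90 CPM in colony 1, 37.9 ± 0.363 CPM in colony 2 and 125 ± 7.64 CPM in control (SD, n = 2 each), so that colony 1 kept 30.2% and colony 2 kept 30.4% of the control mean. The log2 difference from control, on the log2(CPM + 1) scale used throughout, was −1.70 in colony 1 and −1.69 in colony 2. Over both colonies it was −1.70, the 17th lowest of the 13675 genes tested and the 9th lowest of the 8638 whose higher group averaged 20 CPM or more. The measurement rests on 348 to 468 implied reads in knockdown libraries and on 1166 and 1298 in controls.

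The comparison of the colonies with each other drew on the same libraries by which CFL2 was chosen. If that choice asked for a low value in both colonies, it favoured their agreement. Little can therefore be drawn from the lack of a CFL2 difference between them. By limma, CFL2 differed between colony 2 and colony 1 by 0.01 on the log2 scale (adjusted p = 0.975), with a 95% interval of −0.18 to 0.20. In bulk libraries, less CFL2 mRNA in every cell and fewer cells that express it cannot be told apart.

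CFL1, the main cofilin of non-muscle cells, held 952 and 974 CPM in colony 1 and 1014 and 1026 CPM in colony 2, against 844 and 862 CPM in control. All 4 knockdown libraries were above both controls, the opposite direction to CFL2. The means were 963 ± 15.3 CPM in colony 1, 1020 ± 8.88 CPM in colony 2 and 853 ± 12.6 CPM in control (SD, n = 2 each). The change over both colonies was 0.22 on the log2 scale (SE 0.05, adjusted p = 7.4e-04 by limma), a 1.16-fold rise. It was 0.17 in colony 1 (adjusted p = 0.0156) and 0.26 in colony 2 (adjusted p = 6.3e-04), and the difference between the colonies was not called (adjusted p = 0.560). The colony 1 call rests on the scaling and on single libraries, since the adjusted p was 0.0888 with each library centred on its median, 0.108 without control replicate 1 and 0.0854 without colony 1 replicate 2.

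DSTN, the ADF protein, held 309 and 300 CPM in colony 1 and 304 and 311 CPM in colony 2, against 323 and 347 CPM in control. The 4 knockdown libraries were below both controls, by a margin smaller than the gap between the 2 controls. The means were 304 ± 6.23 CPM in colony 1, 307 ± 5.09 CPM in colony 2 and 335 ± 16.4 CPM in control (SD, n = 2 each). The log2 difference over both colonies was −0.13 with a 95% interval of −0.25 to −0.02, and it was not called after adjustment over all genes (adjusted p = 0.0599 by limma). With each library centred on its median the difference was −0.18 and was called (adjusted p = 0.0118). A difference as large as that of CFL2 lies outside the interval in either case.

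**Figure D2:**
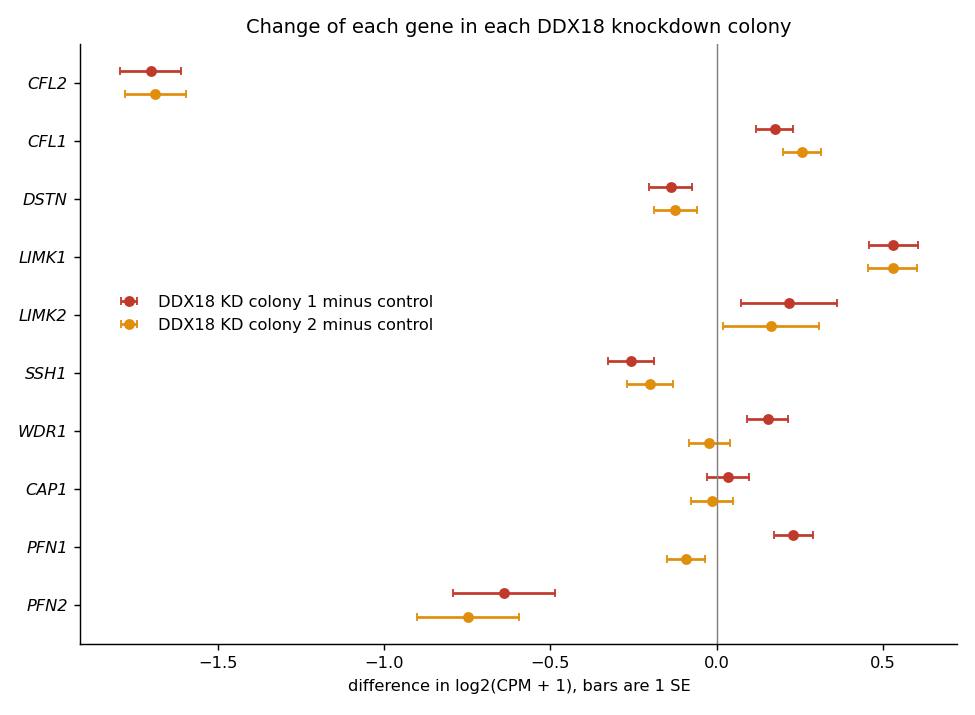
Difference of each gene from control in log2(CPM + 1), with 1 point for each knockdown colony and bars of 1 SE from limma. CFL2 stands alone near −1.7, PFN2 near −0.7 and LIMK1 near 0.5 in both colonies, whereas PFN1, WDR1 and CAP1 are on opposite sides of 0 in the 2 colonies; CFL2 is shown as a description.

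Levels of different genes were set side by side as CPM per kb of exon, with all annotated exons of a gene joined, whether or not these cells use them. On that scale CFL1 averaged 397 in colony 1, 420 in colony 2 and 351 in control, DSTN averaged 81.2 in colony 1, 81.9 in colony 2 and 89.4 in control, and CFL2 averaged 5.33 in colony 1, 5.38 in colony 2 and 17.7 in control. CFL1 was thus the most abundant ADF/cofilin transcript in every library and CFL2 the least. CFL2 made up 1.10% ± 0.0447 of the ADF/cofilin sum in colony 1 and 1.06% ± 0.0205 in colony 2, against 3.85% ± 0.147 in control (SD, n = 2 each). CFL1 took 82.1% in colony 1 and 82.8% in colony 2, against 76.7% in control, and DSTN took 16.8% in colony 1 and 16.2% in colony 2, against 19.5% in control. The family sum was 483 ± 4.89 CPM per kb in colony 1, 507 ± 4.96 in colony 2 and 458 ± 10.7 in control (SD, n = 2 each), so all 4 knockdown libraries had a higher sum of the 3 transcripts than either control. That order depends on the length scaling, because in plain CPM the sums were 1297 to 1375 CPM in knockdown libraries and 1287 and 1339 CPM in controls, which overlap. In plain CPM the CFL2 share was 2.88% in colony 1, 2.77% in colony 2 and 9.48% in control.

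**Figure D3:**
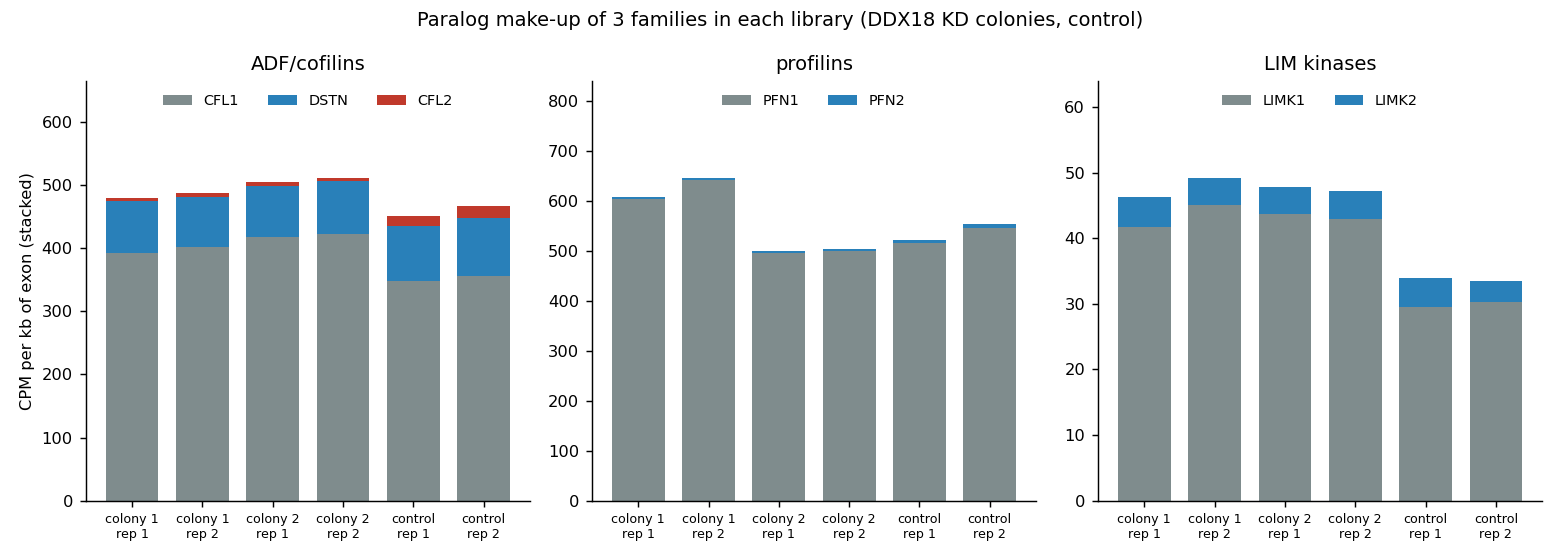
Stacked CPM per kb of exon for the ADF/cofilins, the profilins and the LIM kinases in each library, colony 1 first, then colony 2, then control. CFL2 is a thin top layer of 1.05% to 1.13% of the ADF/cofilin bar in knockdown libraries and of 3.75% and 3.96% in controls, and the LIM kinase bars are taller in all 4 knockdown libraries.

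The order of all 10 genes by control level per kb was PFN1 at 531, CFL1 at 351, WDR1 at 244, CAP1 at 123, DSTN at 89.4, LIMK1 at 29.9, CFL2 at 17.7, SSH1 at 17.0, PFN2 at 6.87 and LIMK2 at 3.74. In control the ranges of CFL2 and SSH1 overlapped, at 16.9 and 18.4 for CFL2 and 17.7 and 16.2 for SSH1, and no other neighbours in that order did. In the knockdown libraries CFL2, at 5.14 to 5.52, was well below SSH1, at 13.8 to 14.8, and just above PFN2, at 3.38 to 4.64. PFN2 and LIMK2 overlapped there, LIMK2 lying at 4.09 to 4.59.

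Among the enzymes that set cofilin phosphorylation, the mRNA of the kinase LIMK1 rose, that of the phosphatase SSH1 fell and that of the kinase LIMK2 was not called. Neither protein nor phosphorylation was measured. LIMK1 held 154 and 166 CPM in colony 1 and 161 and 158 CPM in colony 2, against 109 and 112 CPM in control. Every knockdown library was well above both controls, and the colonies overlapped. The means were 160 ± 8.78 CPM in colony 1, 160 ± 1.67 CPM in colony 2 and 110 ± 1.98 CPM in control (SD, n = 2 each). The rise was 0.53 on the log2 scale over both colonies (SE 0.06, adjusted p = 1.3e-07 by limma), or 1.44-fold, and 0.53 in each colony (adjusted p = 1.8e-06 in both).

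LIMK2, its paralog, held 22.5 and 20.1 CPM in colony 1 and 20.3 and 20.6 CPM in colony 2, against 21.2 and 15.5 CPM in control. The first control library was inside the knockdown range and the second below it. The log2 difference was 0.19 with a 95% interval of −0.07 to 0.45 and was not called (adjusted p = 0.226 by limma). Without control replicate 1 it was 0.41 and was called (adjusted p = 0.0342), so this value is decided by 1 library. Per kb of exon, LIMK1 and LIMK2 together came to 47.8 in colony 1 and 47.5 in colony 2, against 33.7 in control, and LIMK2 was 9.12% of that sum in colony 1 and 8.78% in colony 2, against 11.1% in control.

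SSH1, a slingshot phosphatase that reactivates cofilin, held 189 and 199 CPM in colony 1 and 201 and 203 CPM in colony 2, against 242 and 222 CPM in control. All 4 knockdown libraries were below both controls. The means were 194 ± 7.60 CPM in colony 1, 202 ± 1.78 CPM in colony 2 and 232 ± 14.0 CPM in control (SD, n = 2 each). The fall was −0.23 on the log2 scale (SE 0.06, adjusted p = 0.00299 by limma), with −0.26 in colony 1 (adjusted p = 0.00453) and −0.20 in colony 2 (adjusted p = 0.0235). This call rests on the first control, since without control replicate 1 the log2 difference was −0.17 (adjusted p = 0.0898). The colony 1 call was also lost without colony 1 replicate 1 (adjusted p = 0.0529), and the colony 2 call without colony 2 replicate 1 (adjusted p = 0.107) or colony 2 replicate 2 (adjusted p = 0.0826).

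The cofilin partners in disassembly differed little. WDR1, which caps and breaks cofilin-coated filaments, held 815 and 897 CPM in colony 1 and 742 and 772 CPM in colony 2, against 764 and 772 CPM in control. Colony 1 lay above control and colony 2 overlapped it. WDR1 was called in colony 1, at 0.15 (adjusted p = 0.0461 by limma), but that call was lost with median centring (adjusted p = 0.198), without the robust spread (adjusted p = 0.0590) and on leaving out any library other than colony 1 replicate 1 (adjusted p = 0.0633 to 0.418). Colony 2 differed from control by −0.02 (adjusted p = 0.807), and the difference between the colonies, −0.18, was not called (adjusted p = 0.152).

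CAP1, cyclase-associated protein, held 389 and 400 CPM in colony 1 and 368 and 395 CPM in colony 2, against 385.03 and 384.65 CPM in control. The control values lay inside the knockdown range. The log2 difference over both colonies was 0.01 with a 95% interval of −0.10 to 0.12 (adjusted p = 0.891 by limma).

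Of the profilins, PFN1 was the member on which the colonies disagreed. It held 1172 and 1245 CPM in colony 1 and 962 and 969 CPM in colony 2, against 999 and 1060 CPM in control. Colony 1 lay above both controls and colony 2 below both. The means were 1208 ± 52.1 CPM in colony 1, 966 ± 4.80 CPM in colony 2 and 1030 ± 43.0 CPM in control (SD, n = 2 each). The difference between colony 2 and colony 1 was −0.32 on the log2 scale (SE 0.06, adjusted p = 0.00128 by limma). Colony 1 was higher than control by 0.23 (adjusted p = 0.00240), a call lost without control replicate 1 (adjusted p = 0.0558), and colony 2 differed from control by −0.09 and was not called (adjusted p = 0.217).

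PFN2, the profilin best known from the nervous system, held 14.9 and 13.9 CPM in colony 1 and 11.3 and 15.6 CPM in colony 2, against 21.6 and 24.5 CPM in control. All 4 knockdown libraries were below both controls, and the colonies overlapped. The means were 14.4 ± 0.667 CPM in colony 1, 13.4 ± 3.0 CPM in colony 2 and 23.0 ± 2.10 CPM in control (SD, n = 2 each). The fall was −0.69 on the log2 scale (SE 0.13, adjusted p = 1.2e-04 by limma), with −0.64 in colony 1 (adjusted p = 0.00162) and −0.75 in colony 2 (adjusted p = 3.2e-04). It rests on 138 to 148 implied reads in knockdown libraries and 211 and 245 in controls. Per kb of exon PFN2 was 0.686% of the 2 profilins in colony 1 and 0.798% in colony 2, against 1.28% in control, so a change of PFN2 barely moved the profilin sum.

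Counted together, 4 of the 9 members other than CFL2 were called in both colonies against control, against 44.7% of all genes tested. Of these, 2 were higher, CFL1 and LIMK1, against 23.2% of all genes, and 2 were lower, PFN2 and SSH1, against 21.5%. In colony 1 there were 6 of 9, against 39.3% of all genes, with 4 higher (21.1% of all genes) and 2 lower (18.3%). In colony 2 there were 4 of 9, against 40.3% of all genes, with 2 higher (20.5%) and 2 lower (19.8%). The colony 1 count was 3 without control replicate 1. Over both colonies and in colony 2, the members' share called was near that of all genes. The median log2 difference of the 9 genes was 0.07 over both colonies, beside 0.01 for all genes tested. Between the colonies 1 of the 10 members was called, PFN1, which was lower in colony 2, against 2.28% of all genes called and 1.65% called lower. The 4 knockdown libraries lay beyond both controls for CFL1 and LIMK1 above and for DSTN, SSH1 and PFN2 below, 5 of the 9 genes, and for 53.6% of all genes tested, 27.8% above and 25.8% below.

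Some members share exon sequence with a gene on the other strand, and the sources used here do not give how the authors' counting treated strand, so reads of such pairs cannot be told apart. These pairs were looked at after their values had been seen. CFL1 shares 357 exon bases with SNX32, a sorting nexin, and 759 with MUS81, an endonuclease subunit. SNX32 was at 35.3% to 37.8% of the CFL1 value in every library, with 338, 365, 381 and 362 CPM in the knockdown libraries and 312 and 326 CPM in controls. MUS81 was at 62.7 to 71.1 CPM in knockdown libraries and 46.8 and 40.7 CPM in controls, or 4.72% to 7.07% of CFL1, and was higher by 0.63 on the log2 scale (adjusted p = 4.3e-07 by limma). PFN1 shares 111 exon bases with ENO3, a muscle enolase, whose 476 and 481 CPM in colony 1 and 501 and 487 CPM in colony 2 did not follow the PFN1 difference between the colonies. CAP1 shares 1189 exon bases with PPT1, a lysosomal thioesterase, which was at 77.3 to 92.3 CPM in knockdown libraries and 115 and 125 CPM in controls. SSH1 shares 255 exon bases with AC087893.2 on the other strand and 80 with RF00561 on its own. PFN2 shares 60 with AC022494.1 on the other strand and 28 with ANKUB1 on its own, which averaged 3.34 CPM. LIMK2 shares 102 with RF00019 on the other strand. CFL2, DSTN, LIMK1 and WDR1 share no exon base with another annotated gene. Processed copies held at most 0.387% of the CPM of CFL1, 1.89% of that of DSTN and 0.821% of that of PFN1.

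Because CFL2 is best known from muscle, a list of muscle markers was read beside it. Its 17 genes summed to 88.2 to 101 CPM in knockdown libraries and 125 to 127 CPM in controls, and 7 of them, the muscle regulator MYOD1 among them, were at 0 in every library. Of the 4 that passed the expression filter 3 were lower, namely TNNT1, a troponin, at −0.27 (adjusted p = 0.00391 by limma), TTN, titin, at −0.46 (adjusted p = 0.00159) and MB, myoglobin, at −1.39 (adjusted p = 7.3e-07), beside 21.5% of all genes called lower. In colony 1 alone 2 of the 4 were called lower, beside 18.3% of all genes, and in colony 2 alone 3, beside 19.8%. The part of these genes in the CFL2 result was not tested.

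The genes with a pattern most like that of CFL2 were found by the root mean square difference of log2(CPM + 1) over the 6 libraries, each gene centred on its own mean, among the 8563 genes whose higher group averaged 20 CPM or more and whose symbol was a plain one of capitals and digits with at most 1 hyphen. The nearest were ALPP, the placental alkaline phosphatase, at 0.111, MSMO1, a sterol oxidase of cholesterol synthesis, at 0.112, SYT12, a synaptotagmin, at 0.117, HSPB8, a small heat shock protein, at 0.122, and ADIPOR2, an adiponectin receptor, at 0.150. ADIPOR2 averaged 39.8 ± 0.585 CPM in colony 1, 38.1 ± 1.97 CPM in colony 2 and 105 ± 2.27 CPM in control (SD, n = 2 each), a log2 difference of −1.41 over both colonies. By the same measure PFN2 ranked 328th, SSH1 1916th, DSTN 2638th, CFL1 6028th and LIMK1 7728th. CAP1, which was not called, ranked 4083rd. The measure follows mainly the fall for which CFL2 was chosen. The ranks therefore restate the differences from control and say nothing more on whether the paralogs share that fall.

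**Figure D4:**
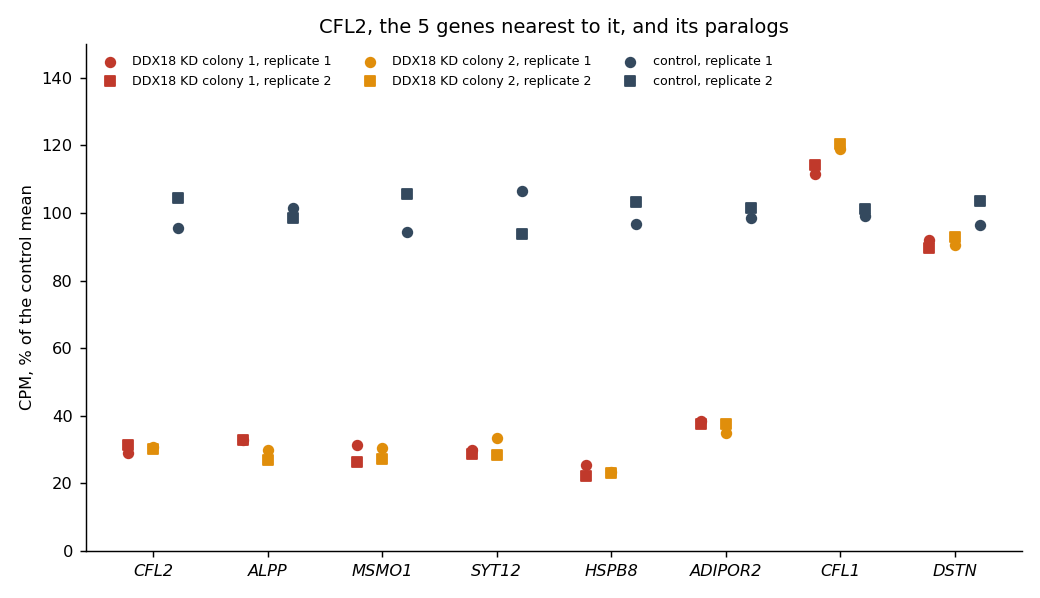
CPM as a percentage of the control mean for CFL2, for the 5 genes nearest to it in pattern and for its paralogs CFL1 and DSTN, with 1 point for each of the 6 libraries. CFL2 and ADIPOR2 sit near 30% and near 37% in the knockdown libraries, whereas all 4 CFL1 points lie above their controls and the DSTN points lie a little below theirs.

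The remaining actin machinery was read through 9 lists of 121 genes, of which 105 passed the expression filter. By limma 25 were higher and 28 lower over both colonies, 50.5% called beside 44.7% of all genes, with a median log2 difference of −0.01 beside 0.01. The control of cofilin phosphorylation had 6 higher and 2 lower of 12 tested, with a median of 0.30. Beside the counts of this list and of each list below stand 23.2% of all genes called higher and 21.5% called lower. CIB1, a calcium-binding protein that acts on the PAK1 kinase, rose by 0.47 (SE 0.08, adjusted p = 4.9e-05), and PDXP, a phosphatase that removes phosphate from cofilin, rose by 0.93 (SE 0.21, adjusted p = 6.3e-04) at only 3.13 to 5.25 CPM, against 1.63 and 1.60 CPM in control. SSH3, another slingshot phosphatase, was lower by −0.40 (adjusted p = 0.00127), a call lost without control replicate 1 (adjusted p = 0.0509). Chosen after their values were seen, the kinases upstream of LIMK1 were mixed, with ROCK2 at 0.43, PAK2 at 0.43 and PAK4 at 0.39 among the higher and PAK1 at −0.38 among the lower. ROCK1, at −0.03, was not called, and PAK1 was not called in colony 1 alone (adjusted p = 0.0842 by limma).

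Other disassembly and severing factors had 5 higher and 2 lower of 19, with a median of −0.01. MICAL2, which oxidises actin and so dismantles filaments, rose by 0.55 (adjusted p = 4.6e-09 by limma). CAP2, the paralog of CAP1, averaged 69.1 ± 0.434 CPM in colony 1 and 67.9 ± 0.220 CPM in colony 2, against 98.1 ± 6.16 CPM in control (SD, n = 2 each), and fell by 0.51 on the log2 scale (adjusted p = 1.8e-06). CAP1, as given above, was not called. Of the 3 monomer sequestering genes tested, TMSB4X, thymosin beta 4, rose by 0.29 (adjusted p = 1.2e-04) and TMSB10, thymosin beta 10, fell by 0.29 (adjusted p = 2.7e-05). TMSB10 held 1093 and 1042 CPM in colony 1 and 819 and 810 CPM in colony 2, against 1130 and 1147 CPM in control. Against control it was not called in colony 1, at −0.09 (adjusted p = 0.202 by limma), and was called in colony 2, at −0.48 (adjusted p = 1.6e-07). It was lower in colony 2 than in colony 1 by −0.39 (adjusted p = 8.8e-05), as PFN1 was, and its call over both colonies was lost when the 4 knockdown libraries were fitted as 1 group (adjusted p = 0.0793).

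Filament end cappers had 2 higher and 4 lower of 12, with a median of −0.08. The 2 alpha subunits of capping protein moved apart, CAPZA1 at −0.36 (adjusted p = 3.0e-05 by limma) and CAPZA2 at 0.28 (adjusted p = 6.5e-04), and CARMIL1, a regulator of capping protein, was at −0.43 (adjusted p = 3.5e-04). The Arp2/3 complex, which starts branches, and its activators had 4 higher and 4 lower of 22, with a median of 0.02. Its subunit ACTR2 rose by 0.63 (adjusted p = 1.1e-08), and the activator WASF3 was at −0.62 (adjusted p = 0.00157), which was lost without control replicate 1 (adjusted p = 0.0839). Formins and other elongation factors had 2 higher and 8 lower of 17, with a median of −0.19, beside 23.2% of all genes higher and 21.5% lower. The counts were 2 and 8 in colony 1, beside 21.1% and 18.3% of all genes. In colony 2 they were 4 and 4, beside 20.5% and 19.8%. FMNL1, a formin, rose by 0.66 (adjusted p = 8.8e-09), and the formin DAAM2 fell by 1.22 on the log2 scale (adjusted p = 9.0e-05), at 1.08 to 1.63 CPM in knockdown libraries and 5.11 and 3.40 CPM in controls.

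**Figure D5:**
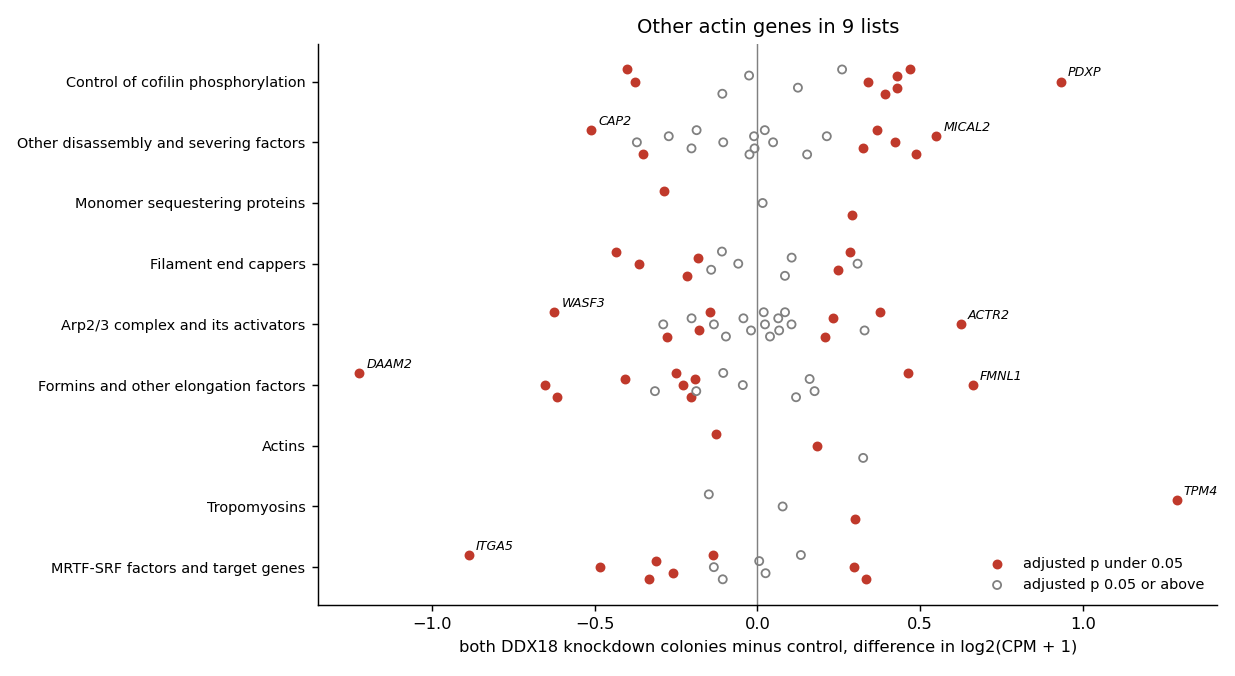
Difference between both DDX18 knockdown colonies and control in log2(CPM + 1) for the 105 tested genes of 9 actin lists, with 1 point for each gene, filled where the adjusted p was under 0.05. TPM4 at 1.29 and DAAM2 at −1.22 are the extremes, and most points of every list lie within 0.5 of 0.

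ACTB, cytoplasmic beta actin, held 3350 and 3033 CPM in colony 1 and 3300 and 3165 CPM in colony 2, against 3453 and 3553 CPM in control. It was lower by −0.13 (adjusted p = 0.0321 by limma), but was not called without the robust spread (adjusted p = 0.0896), with the knockdown libraries as 1 group (adjusted p = 0.133), or without control replicate 1, control replicate 2, colony 1 replicate 2 or colony 2 replicate 2 (adjusted p = 0.0930 to 0.235). ACTG1, cytoplasmic gamma actin, held 2318 and 2161 CPM in colony 1 and 2176 and 2055 CPM in colony 2, against 1987 and 1849 CPM in control, and rose by 0.18 (adjusted p = 0.00364), which was lost without control replicate 2 (adjusted p = 0.135). The actins thus had 1 higher and 1 lower of 3 tested, with a median of 0.18. These 2 genes share 76 words of 31 bases, and a read lying wholly within shared sequence could not be told apart. How many reads this concerns was not tested.

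Tropomyosins, which coat filaments and keep cofilin off many of them, had a median of 0.19 over both colonies. Of the 4 tested, 2 were higher there and none lower. The counts were 3 and 0 in colony 1, beside 21.1% and 18.3% of all genes. In colony 2 they were 2 and 1, beside 20.5% and 19.8%. TPM4 held 841 and 846 CPM in colony 1 and 769 and 799 CPM in colony 2, against 326 and 339 CPM in control. All 4 knockdown libraries were far above both controls, and the rise was 1.29 on the log2 scale (SE 0.05, adjusted p = 2.9e-16 by limma). TPM2 rose by 0.30 (adjusted p = 0.00384). MRTF-SRF factors and their targets, which respond to the pool of free actin, had 2 higher and 6 lower of 13, with a median of −0.13. ITGA5, an integrin, fell by 0.89 on the log2 scale (adjusted p = 7.8e-11), MYL9, a myosin light chain, was at −0.48 (adjusted p = 3.8e-07) and ACTN1, an actin crosslinker, rose by 0.34 (adjusted p = 1.3e-05).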

How the data were processed

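The deposited values were CPM, counts of reads per gene scaled to library size by the authors. Per the submitters' processing notes, Trim Galore and HISAT2 were used, with the builds hg38 and mm10 named and no version. What counted the reads, on which annotation, with which strand setting and scaling, is not given in the sources used here. Per the labels' protocols, mRNA was primed at random after DNase treatment. Of 52142 rows, 15200 had no symbol (2.50% to 2.62% of the CPM) and 10 shared 5 symbols, which left 36932. All values were whole multiples of a library's smallest step within 1e-06, from which implied reads were taken.

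Genes that averaged 1 CPM or more were fitted on log2(CPM + 1) with limma-trend and a robust spread shared by the 3 groups (R 4.3.3, limma 3.58.1, statmod 1.5.0), in 4 two-sided comparisons. Because of the 1 CPM added, log2 differences of weakly expressed genes are smaller than their CPM ratios. The design allowed for read counts, but CPM needed this test. The error of the comparison of both colonies with control leaves out the spread between colonies. No label states that the replicates came from separate cultures. The p-values cover the spread between the libraries alone, and that spread may be technical. The steps were tested on simulated data. Far fewer genes changed there than were called here, and every change was larger than those of CFL1, SSH1 and DSTN. That test therefore does not cover changes as small as theirs.

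The members, the 9 actin lists and the marker lists of mesenchymal, luminal, muscle, leukocyte, endothelial and fibroblast genes were chosen with earlier results of these data known. Named genes were DDX18, the members, ACTB, ACTG1, the 5 genes nearest to CFL2, the markers VIM, ESR1, PGR and ERBB2, and from each list the 2 called genes of largest change with the largest in the other direction. Others are said to have been chosen later or belong to a marker list. CYFIP1 and PECAM1 were not analysed here. Positions, exon lengths and transcripts came from GENCODE release 29 (Python 3.11.15, pandas 2.3.3, numpy 2.4.6, matplotlib 3.10.9). Alternatives were a pseudocount of 0.1 CPM, no filter or one at 10 CPM, median centring, a replicate block, no robust spread, the knockdown libraries as 1 group, plain CPM for shares, and leaving out each library.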

Additional observations from a re-analysis of the deposited data

Results flagged for a closer look

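PFN1 differed between the knockdown colonies, with a difference of −0.32 on the log2 scale for colony 2 minus colony 1 (adjusted p = 0.00128 by limma). Against control, PFN1 was higher in both libraries of colony 1 and lower in both of colony 2. Leaving out each library in turn gave differences of −0.37 to −0.28, with adjusted p from 5.4e-04 to 0.0348. Against control alone, colony 2 differed by −0.09 and was not called (adjusted p = 0.217 by limma). The colony 1 call against control, as given above, depended on control replicate 1. No cause was tested.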

How the results depend on the processing

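Over all alternatives no recomputed value of a gene changed direction while called. The balance of all called genes did change with the scaling. With median centring 2675 were higher and 3511 lower over both colonies, against 3171 and 2944 without it. The higher and lower shares of all genes therefore depend on it. The values counted next include CFL2, DDX18, the 5 genes nearest to CFL2 and list genes named because they were called. These were chosen for or defined by a difference from control, so their keeping the call says little. Of 479 values recomputed for both colonies against control, 465 kept their side of the threshold, 11 lost the call and 3 gained it. For colony 1 against control 104 of 120 kept it, 13 lost it and 3 gained it, for colony 2 against control 115 of 120 kept it, 3 lost it and 2 gained it, and for colony 2 against colony 1 119 of 120 kept it and 1 gained it. Leaving out each library in turn gave 4751 to 5959 called genes for both colonies, 3952 to 5321 for colony 1, 3912 to 5619 for colony 2 and 137 to 452 for colony 2 against colony 1, where the full set gave 312. In that last comparison the count was 170 without colony 1 replicate 2, 137 without colony 2 replicate 1 and 168 without colony 2 replicate 2. Members called in colony 1 ranged from 3 to 5, against 6, with 3 without control replicate 1. In these fits a lone library is assumed to vary like the other groups. The cause was not tested.

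The groups share the replicate numbers 1 and 2, which the labels tie to no batch or culture. The replicate differences of 2 groups correlated across genes by 0.119 (colony 1 and control), 0.128 (colony 2 and control) and 0.159 (colony 2 and colony 1). With a replicate block, 7070 genes were called for both colonies, 6398 for colony 1 and 6570 for colony 2. For colony 2 against colony 1 the block gave 1036 genes, 361 higher and 675 lower, and 2 members, PFN1 and WDR1 (adjusted p = 0.00481 for WDR1). DSTN was called under the block, with an adjusted p of 0.00939 over both colonies, 0.0205 in colony 1 and 0.0376 in colony 2. With the knockdown libraries as 1 group 5419 genes were called. Tests for read counts were planned and not run, because the step of 3 of the 6 libraries (control replicate 2 and both of colony 1), at 0.1001 to 0.1010 CPM, was too close to a round decimal for their reads to be taken as recovered. With 2 libraries a group, small differences such as that of DSTN are at the limit of what can be called, and among the members LIMK2 and PFN2 rest on the fewest reads.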

Other observations

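Among the 6 mesenchymal markers used to check the cell line, 2 were higher, 1 was lower and VIM, AXL and CAV1 were not called over both colonies. Of all genes tested, 23.2% were called higher and 21.5% lower. MSN, moesin, which ties actin filaments to the plasma membrane, averaged 891 ± 6.12 CPM in colony 1 and 899 ± 7.78 CPM in colony 2, against 668 ± 14.4 CPM in control (SD, n = 2 each). Its rise was 0.42 on the log2 scale (adjusted p = 1.1e-07 by limma). CD44, the hyaluronan receptor that binds moesin, averaged 943 ± 5.54 CPM in colony 1 and 1045 ± 6.96 CPM in colony 2, against 593 ± 12.6 CPM in control (SD, n = 2 each), and rose by 0.74 (adjusted p = 4.0e-12). NT5E, the surface enzyme CD73, averaged 200.4 ± 3.28 CPM in colony 1 and 203 ± 0.582 CPM in colony 2, against 361 ± 30.0 CPM in control (SD, n = 2 each), and was lower by −0.83 (adjusted p = 1.9e-11). MSN, CD44 and NT5E are named here after their values were seen.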
